A study of Mus musculus with 2 samples.

Results

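The regions described here are 34658 low-methylated distal windows in the genome of E14 mouse embryonic stem cells (mESCs). Each window is a 1 kb tile of an autosome that held 5 or more CpG sites in replicate 1, had the state CC in 50 to 80% of its calls there, and lay more than 5 kb from any annotated transcription start site (TSS). The rule chose 34658 of the 841878 distal tiles with 5 or more sites, or 4.12%, and 1222851 autosomal tiles in all had 5 or more sites. The tiles were selected on CC in replicate 1, so all replicate 1 values are given as a description, and differences were tested only in replicate 2, which the rule did not use. SCoTCH-seq keeps both strands of a DNA fragment joined and reads unmodified cytosine (C), 5-methylcytosine (M, or mC) and 5-hydroxymethylcytosine (H, or hmC) on each. A call is the state of 1 CpG in 1 fragment, written with the plus strand first, and 9 states are possible. Both replicates are genomic DNA of the E14 line, an established mESC line, from separate passages grown on gelatin with serum and LIF and with no treatment. The labels give 10% FBS and the methods of the study a higher content, and which applies is not known.

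DNA methylation in mammals sits mostly at CpG sites and is copied to the new strand after replication by maintenance methylation, which takes a hemimethylated site (MC or CM) back to MM. TET enzymes oxidise mC to hmC, which can be lost on replication or removed after further oxidation. Away from promoters, stretches with less methylation than their surroundings are a known property of enhancers and other regions bound by transcription factors, and hmC in mESCs has been studied at enhancers of several kinds, where its level differs with the kind. A tile with 50 to 80% CC lies between the highly methylated bulk of the distal genome and the nearly unmethylated CpG islands. Whether hmC in such a tile faces C (HC/CH), mC (HM/MH) or hmC (HH) on the other strand cannot be read from strands sequenced apart.

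The following 200-base windows come from 4 tiles that the results below name, and they are examples rather than typical tiles. They were read from GRCm38.p6, plus strand, 5′ to 3′, each at the place in its tile with the most CpG sites measured in replicate 1. Capitals mark the CpGs. The first and second belong to tiles with many calls in replicate 2, an intergenic tile near Cd244a and a tile in a coding exon of Plec, the gene of the cytoskeletal linker plectin. The other windows belong to the pair of tiles whose HC/CH was highest when the lower replicate was counted, in an intron of the cadherin gene Cdh4 and in an intergenic region.
near Cd244a, chr1:171551355-171551554: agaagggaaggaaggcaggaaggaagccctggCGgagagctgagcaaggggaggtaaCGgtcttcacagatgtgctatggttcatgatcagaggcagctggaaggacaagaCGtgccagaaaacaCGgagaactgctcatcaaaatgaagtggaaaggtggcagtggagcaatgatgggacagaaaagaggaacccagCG
Plec exon, chr15:76181656-76181855: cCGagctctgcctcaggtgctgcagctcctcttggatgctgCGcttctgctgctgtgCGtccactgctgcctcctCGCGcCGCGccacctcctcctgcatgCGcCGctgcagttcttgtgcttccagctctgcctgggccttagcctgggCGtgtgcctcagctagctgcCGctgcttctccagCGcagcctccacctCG
Cdh4 intron, chr2:179792435-179792634: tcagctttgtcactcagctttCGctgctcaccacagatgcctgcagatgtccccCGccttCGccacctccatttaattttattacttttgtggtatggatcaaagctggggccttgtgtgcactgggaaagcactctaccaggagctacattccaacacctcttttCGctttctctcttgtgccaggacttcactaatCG
intergenic, chr14:76630181-76630380: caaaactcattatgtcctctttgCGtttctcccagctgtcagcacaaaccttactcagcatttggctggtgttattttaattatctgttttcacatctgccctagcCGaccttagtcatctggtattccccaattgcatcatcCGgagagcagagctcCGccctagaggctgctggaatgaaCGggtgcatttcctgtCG
The windows hold 5, 13, 5 and 6 CpGs. The whole Plec tile holds 65 CpGs, far above the median of 11 for all the chosen tiles. In the window on chromosome 14, HC/CH took 15.8% of 57 calls in replicate 1 and 20% of 30 calls in replicate 2, and CC took 68.4% and 76.7%. In the window near Cd244a, HC/CH took 1.35% of 223 calls in replicate 1 and 0 of 62 calls in replicate 2, with CC at 59.2% and 53.2%. In the Plec window HC/CH took 11.1% of 36 calls and 10% of 10 calls. The Cdh4 window had 8.70% HC/CH and 45.7% CC of 46 calls in replicate 1 and no call in replicate 2, so it is not the stretch that gives its tile the high level.

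Replicate 1 gave 3494890 calls at 336918 sites in the tiles, and replicate 2 gave 818251 calls at 127257 sites, or 10.4 and 6.43 calls per site. In replicate 2, 32080 of the 34658 tiles had a site and 2578 had none, and 10572 had 5 or more. Levels are therefore pooled over tiles, as the calls of a state in percent of all calls, without correction by the spike-in duplexes unless stated. Intervals for pooled levels and for single tiles are exact Clopper-Pearson intervals at 95%, which cover counting error only. The 2 replicates of 1 condition allow no test between samples. Differences in replicate 2 were tested by flipping the signs of the differences of the 19 autosomes in every combination, an exact and two-sided permutation test, and p-values were adjusted by Benjamini-Hochberg within each family of comparisons. The autosomes are blocks of 1 library and not replicates, and the smallest p that this test can give is 3.8e-06.

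The tiles stayed low in methylation when read in the other library, although less so than in the library that chose them. CC made up 62.1% of the calls in replicate 1 and 56.7% in replicate 2. MM, the fully methylated state, made up 22.3% and 25.6%. Of the 10572 tiles with 5 or more sites in replicate 2, 6287 again had 50 to 80% CC, or 59.5% of them, against 5.5% of all distal tiles with that coverage in both replicates. CC was 20 to 50% in 3301 tiles, over 80% in 863 and under 20% in 121. Applied to replicate 2 alone, the rule gave 9587 tiles, of which the 6287 shared tiles made up 65.6%, while they made up 18.1% of the tiles chosen in replicate 1. Tiles just inside the lower limit, with 50 to 51% CC in replicate 1, had 45.0% CC in replicate 2, and tiles just outside it, with 49 to 50%, had 43.5%. At the upper limit, tiles with 79 to 80% CC in replicate 1 had 73.9% in replicate 2 and tiles with 80 to 81% had 75.6%. HC/CH in replicate 2 was 6.47% just inside and 6.49% just outside the lower limit, and 5.17% and 5.06% at the upper limit. Across the 10572 tiles, the values of the replicates were related with a Spearman's rho of 0.55 for CC, 0.40 for HC/CH, 0.21 for MC/CM, 0.19 for HM/MH and 0.09 for HH, over tiles that share depth and base composition and without a test.

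Within the tiles, hmC mostly faced an unmodified cytosine. HC/CH made up 5.79% of the calls in replicate 1 and 6.40% of those in replicate 2 (6.10% ± 0.432, SD, n = 2). This was somewhat below the level of hemimethylation, as MC/CM took 6.48% and 8.04% (7.26% ± 1.105, SD, n = 2), HM/MH 2.89% and 2.86% (2.87% ± 0.0195, SD, n = 2), and HH 0.445% and 0.404% (0.424% ± 0.0287, SD, n = 2). The intervals in replicate 2 ran from 6.35 to 6.45% for HC/CH and from 2.82 to 2.90% for HM/MH. HC/CH thus differed between the replicates by more than counting error. Each SD pairs the library that chose the tiles with the one that did not, so it is no plain replicate spread. The small SD of HM/MH held only for the levels as called. After correction by the spike-in duplexes of each library, the pair for replicates 1 and 2 came to 1.83% and 2.57% (2.20% ± 0.525, SD, n = 2). Of all calls with hmC, HC/CH made up 63.5% in replicate 1 and 66.2% in replicate 2. Of all calls with any modification, 24.0% and 22.3% carried hmC on at least 1 strand. Fully unmethylated pUC19 DNA, read in the same libraries, gave 0.0344% HC/CH in replicate 1 and 0.0859% in replicate 2, far below the tiles. Fully methylated lambda DNA gave 3.88% HM/MH in replicate 1 and 0.340% in replicate 2, so the HM/MH levels of the 2 libraries stand on different backgrounds.

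Compared with their flanks, the tiles held more HC/CH and more HH and less MC/CM and HM/MH in replicate 2. The flank of a tile is the 5 tiles on each side that were not themselves chosen, 239555 tiles in all. No limit of TSS distance, sites or CC was set for flank tiles. Some can thus lie near a TSS, and 155701 of them had 5 or more sites in replicate 1. HC/CH was 5.20% in the flanks in replicate 1 and 4.86% in replicate 2, against 5.79% and 6.40% in the tiles. In replicate 2 the tile exceeded the flank by 1.54 percentage points, with the same sign on 19 of 19 autosomes (adjusted p = 3.8e-06, exact sign-flip permutation test). The autosomes did not overlap for this state, as the tiles ranged from 5.57 to 7% and the flanks from 4.46 to 5.54%. HH was 0.498% in the flanks in replicate 1 and 0.225% in replicate 2, and in replicate 2 the tiles were 0.179 percentage points above them, with the same sign on 19 of 19 autosomes (adjusted p = 3.8e-06, exact sign-flip permutation test). In replicate 1 the order of HH was the opposite, with 0.445% in the tiles, and 0.709% of the calls on fully methylated duplexes were HH in that library. Corrected by the spike-in duplexes of that library, HH was 0.221% in the tiles and 0.0463% in the flanks.

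**Figure D1:**
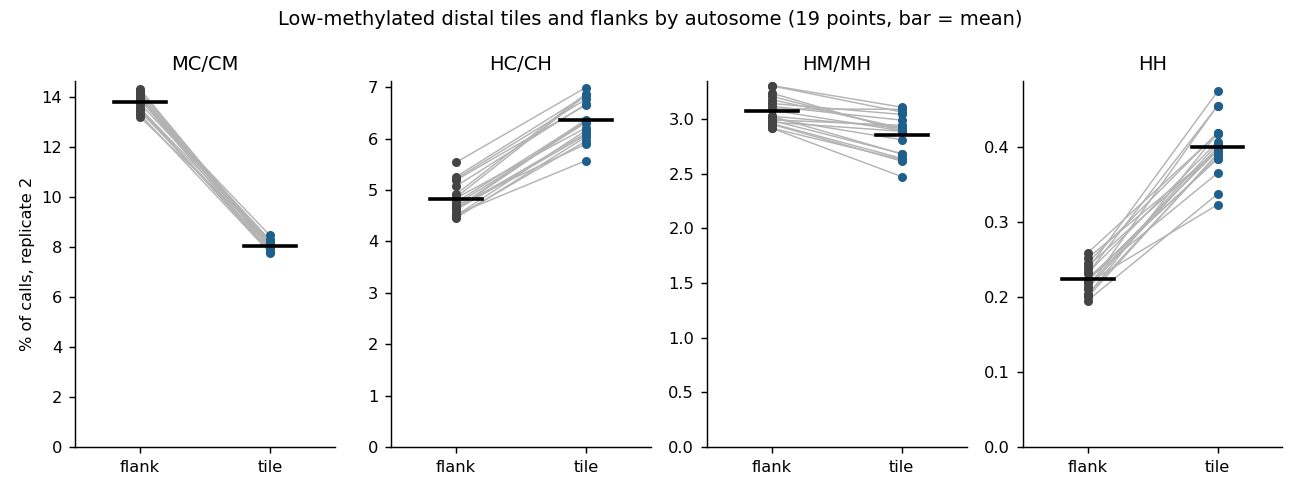
Levels of hemimethylated MC/CM and of the hmC states HC/CH, HM/MH and HH (percent of calls, replicate 2) in the flanks and in the tiles, with 1 point for each of the 19 autosomes, lines joining the same autosome and bars at the mean. On every autosome the tiles lie above the flanks for HC/CH and HH and below them for MC/CM and HM/MH.

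Hemimethylation fell together with full methylation in the tiles. MC/CM was 12.4% in the flanks in replicate 1 and 13.8% in replicate 2, and in replicate 2 the tiles were lower by 5.75 percentage points on 19 of 19 autosomes (adjusted p = 3.8e-06, exact sign-flip permutation test). MM was 51.7% and 55.2% in the flanks. HM/MH was 4.30% in the flanks in replicate 1 and 3.09% in replicate 2, and in replicate 2 the tiles were lower by 0.230 percentage points, again on 19 of 19 autosomes (adjusted p = 3.8e-06, exact sign-flip permutation test). This difference is small, and its sign depends on how miscalls are handled, because MM was called HM/MH in 4.51% of calls on MM duplexes in replicate 1 and in 0.467% in replicate 2. When each library was corrected by its own spike-in duplexes, HM/MH was 1.83% in tiles and 1.82% in flanks in replicate 1, and 2.57% and 2.74% in replicate 2. At sites with 10 or more calls in replicate 2 the difference as called was -0.159 percentage points and did not pass the test (adjusted p = 0.065, exact sign-flip permutation test). With rates from the summed spike-ins of both replicates, HM/MH in replicate 2 was higher in the tiles by 0.611 percentage points (adjusted p = 3.8e-06, exact sign-flip permutation test). Those rates bring the more frequent MM miscalls of replicate 1 into replicate 2. HC/CH kept its order, at 5.54% in tiles and 4.74% in flanks in replicate 1 and 6.49% and 4.87% in replicate 2 with their own rates.

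Levels of all states sum to 100%, so a tile rich in CC must hold less of something else, and shares within the modified calls leave CC out. In replicate 2, hmC was on 22.3% of modified calls in the tiles and on 10.6% in the flanks, a difference of 11.7 percentage points on 19 of 19 autosomes (adjusted p = 3.8e-06, exact sign-flip permutation test). In replicate 1 the values were 24.0% and 13.5%. HC/CH made up 66.2% of the calls with hmC in the tiles and 59.5% in the flanks in replicate 2, higher on 19 of 19 autosomes (adjusted p = 3.8e-06, exact sign-flip permutation test). With the call rates of replicate 2 the shares were 68.7% and 62.4%, and in replicate 1 with its own rates they were 73.0% and 71.8%. With the summed spike-ins the order in replicate 2 turned, at 72.4% and 75.3%. Those rates bring the miscalls of replicate 1 into replicate 2, where corrected HH in the flanks was then 0. MC/CM made up 23.9% of the methylated calls without hmC in the tiles and 19.99% in the flanks (adjusted p = 3.8e-06, exact sign-flip permutation test). With the call rates of replicate 2 the shares were 20.7% and 18.1%, and the excess fell from 3.94 to 2.56 percentage points. MC/CM as a level was lower in the tiles, as given above.

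Single tiles varied widely around these pooled levels. In replicate 2, HC/CH was 0 in 1581 of the 10572 tiles with 5 or more sites, its median was 6.06% and its quartiles were 2.78% and 10.0%. HM/MH was 0 in 3735 of them, with a median of 2.5%, and HH was 0 in 8850. Set against its own flanks in replicate 2, a tile had the higher HC/CH in 5844 of 10554 cases, or 55.4%, where 44.1% of all distal tiles did. HM/MH was higher than in the own flanks in 39.7% of the tiles against 42.9% of all distal tiles, and MC/CM in 19.9% against 41.9%. CC, which the rule used in the other replicate, was higher in 91.7% of the tiles against 44% of all.

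**Figure D2:**
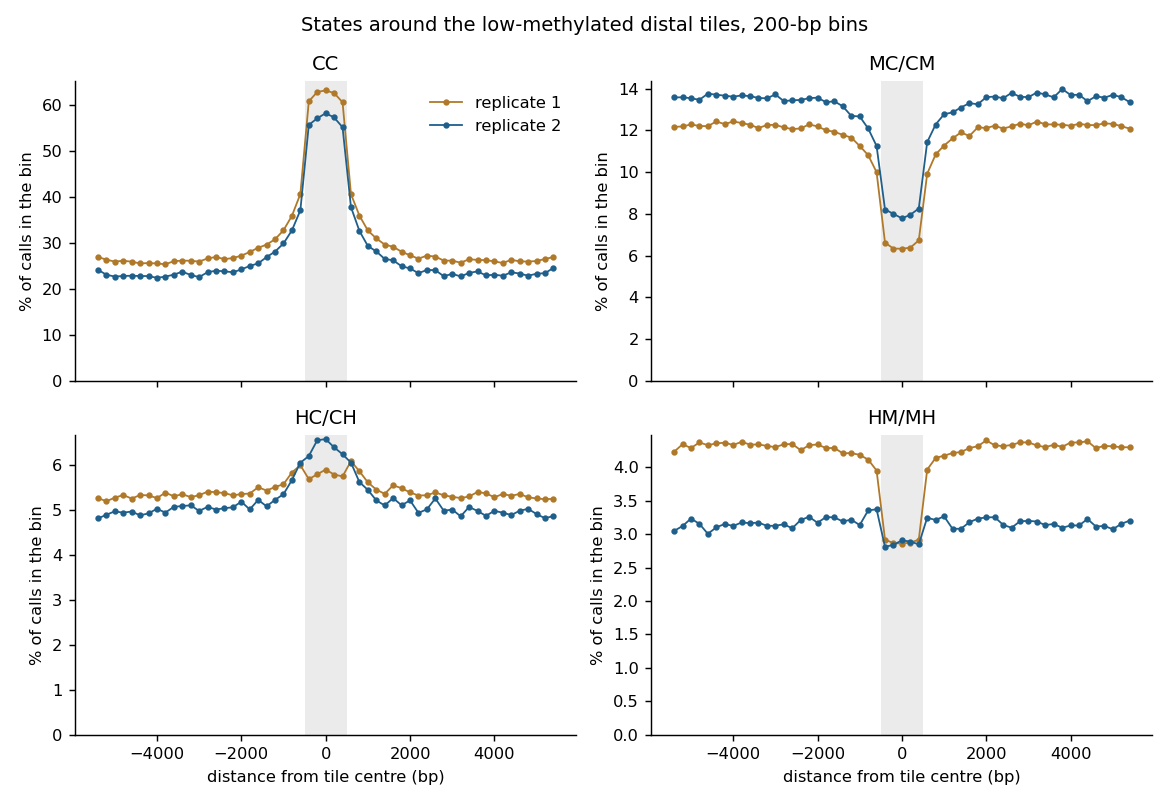
CC, MC/CM, HC/CH and HM/MH (percent of calls in 200-bp bins, both replicates) by distance from the tile centre. The shaded kilobase is the tile. HC/CH peaks at the centre in replicate 2, while in replicate 1 the bins 600 bp from the centre reach 6.004% and 6.09% and the tile itself stays at 5.69 to 5.91%.

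The rise of HC/CH was not confined to the kilobase that the rule chose. In the 200-bp bins of replicate 2, HC/CH was 6.59% at the tile centre, 6.06% on either side at 600 bp, 5.36% and 5.45% at 1000 bp, and 4.82% and 4.87% at 5400 bp. In tiles next to a chosen tile it was 5.69% in replicate 1 and 5.48% in replicate 2, and in tiles 4 and 5 kb away it was 5.11% and 4.71%. In replicate 2 the near tiles were above the far tiles by 0.770 percentage points, and on 19 of 19 autosomes (adjusted p = 5.1e-06, exact sign-flip permutation test). CC moved with it, at 30.1% in the near and 20.9% in the far tiles of replicate 2. MC/CM was 12.6% near and 14.1% far, lower near the tile on 19 of 19 autosomes (adjusted p = 5.1e-06, exact sign-flip permutation test). HM/MH was 3.24% near and 3.06% far, higher near the tile on 17 of 19 autosomes (adjusted p = 1.5e-05, exact sign-flip permutation test). As called in replicate 2, HM/MH was thus highest in the near flank and lowest in the tile. With the call rates of replicate 2 the near flank was still highest and the tile lowest, at 2.57% in the tile, 2.90% near and 2.70% far. Rates from the summed spike-ins bring in the miscalls of replicate 1. With them HM/MH was instead highest in the tile, at 2.12% against 1.86% near and 1.43% far. In replicate 1 the near tiles were lower in HM/MH, at 4.18% against 4.35%, and with its own call rates they were higher, at 2.02% against 1.78%, with 1.83% in the tile.

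Set against all other distal tiles with less than 50% CC, 799666 in number, the low-methylated tiles held more HC/CH in replicate 2. HC/CH was 4.16% in the other distal tiles in replicate 1 and 3.6% in replicate 2, and the low-methylated tiles were higher by 2.80 percentage points on 19 of 19 autosomes (adjusted p = 5.1e-06, exact sign-flip permutation test). HH was 0.158% in the other tiles in replicate 2 and 0.404% in the low-methylated ones, higher on 19 of 19 autosomes (adjusted p = 5.1e-06, exact sign-flip permutation test). In replicate 1 as called the order of HH was the opposite, with 0.499% in the other tiles and 0.445% in the low-methylated ones. MC/CM in replicate 2 was 15.5% and 8.04%, lower on 19 of 19 autosomes. HM/MH was 2.64% in the other distal tiles and 2.86% in the low-methylated ones, higher on 17 of 19 autosomes (adjusted p = 2.3e-05, exact sign-flip permutation test). This difference of 0.215 percentage points was 0.0646 for tiles with no other chosen tile within 5 tiles (adjusted p = 0.18) and 0.160 at sites with 10 or more calls (adjusted p = 0.15, both exact sign-flip permutation tests), so the call was lost in both. As called in replicate 1, HM/MH was 4.41% in the other distal tiles and 2.89% in the low-methylated ones, and with the call rates of that replicate the levels were 1.42% and 1.83%. For tiles chosen in replicate 2 instead, the difference as called was negative when measured in either replicate.

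**Figure D3:**
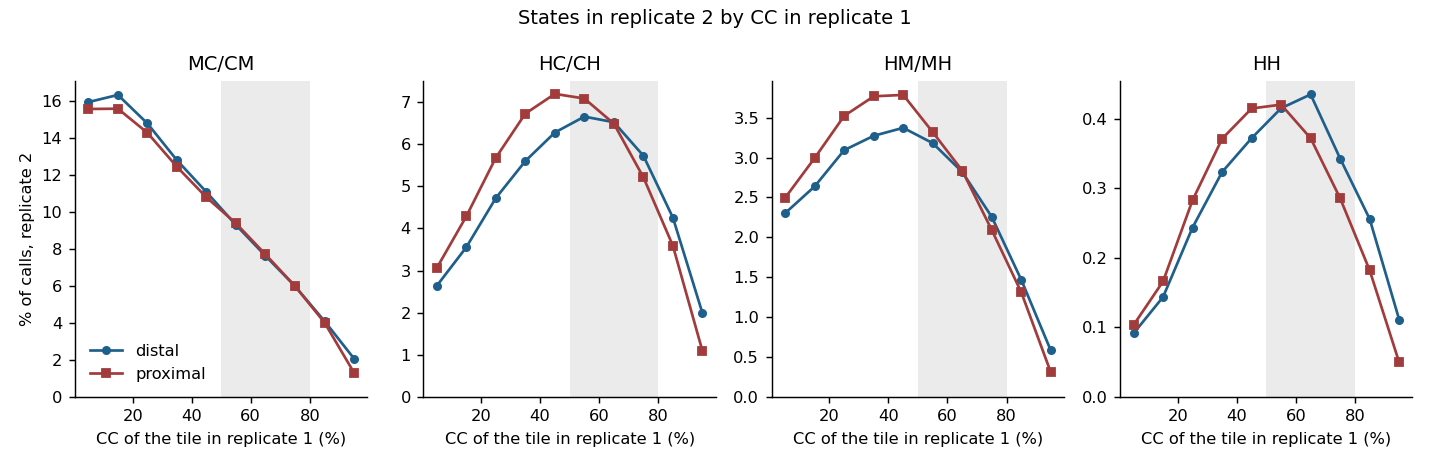
MC/CM and the hmC states HC/CH, HM/MH and HH in replicate 2 (percent of calls) against the CC of the tile in replicate 1 in bands of 10 percentage points, for distal and proximal tiles. The shaded bands are those of the rule, and HC/CH in distal tiles is highest at 50 to 60% CC, with 6.66%.

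Along the range of CC, the hydroxymethylated states had different maxima. Among distal tiles grouped by CC in replicate 1 and read in replicate 2, HC/CH was 2.64% in tiles under 10% CC and reached 6.66% at 50 to 60% CC. It was still 6.52% at 60 to 70%, then 5.73% at 70 to 80% and 1.99% above 90%. HM/MH was highest below the range of the rule, with 3.37% at 40 to 50% CC, and fell to 2.26% at 70 to 80%. HH was highest at 60 to 70% CC, with 0.435%. MC/CM fell from 16.4% at 10 to 20% CC to 5.99% at 70 to 80%. The share of HC/CH among hmC calls rose from 52.4% in the lowest band to 74.2% in the highest in replicate 2 as called, and from 56.1% through 65.2% at 40 to 50% CC to 75.9% when corrected by its own duplexes. Corrected by the duplexes of replicate 1, it was 71.8% in the lowest band of that library, 71.1% at 40 to 50% and 72.1% at 50 to 60% CC, with no rise below 50%, so the replicates differed there after correction. These bands were not tested against each other. As called, the replicates did not give the same band for every state. In replicate 1 HC/CH was also highest at 50 to 60% CC, with 6.16%. HM/MH as called was highest there below 10% CC, with 4.52%, against 3.84% at 40 to 50%, while after correction by its own duplexes it was 1.10% and 2.15%. HH as called differed little below 60%, at 0.49 to 0.52%. Corrected by their own duplexes, the replicates had their maxima in the same bands. In replicates 1 and 2 these were 5.88% and 6.76% for HC/CH at 50 to 60% CC. For HM/MH they were 2.15% and 3.05% at 40 to 50%, and for HH 0.231% and 0.422% at 60 to 70%.

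Low-methylated tiles near a TSS, 32541 in number and chosen by the same rule except for the distance, were the most similar set. HC/CH was 5.87% in replicate 1 and 6.29% in replicate 2 in these proximal tiles, against 5.79% and 6.40% in the distal ones. In replicate 2 the distal tiles were higher by 0.114 percentage points on 14 of 19 autosomes (adjusted p = 0.039, exact sign-flip permutation test), and in replicate 1 they were lower. HM/MH was higher in the distal tiles of replicate 2 by 0.0898 percentage points (adjusted p = 0.039), HH by 0.0431 (adjusted p = 0.0043) and MC/CM by 0.280 (adjusted p = 0.00066, all exact sign-flip permutation tests). The call for HM/MH was lost with the call rates of replicate 2, at a similar difference of 0.0794 percentage points (adjusted p = 0.069, exact sign-flip permutation test). Its difference was -0.0609 percentage points with distal tiles that had no other chosen tile within 5 tiles, set against all proximal tiles. The MC/CM difference was -0.423 at sites with 10 or more calls, and neither passed the test. The call for HH was lost at sites with 10 or more calls, where its difference was larger at 0.0896 percentage points (adjusted p = 0.25), and for distal tiles beyond 10 kb, where it was 0.0256 (adjusted p = 0.23, both exact sign-flip permutation tests). The proximal tiles had more CC, 59.1% against 56.7% in replicate 2. Within bands of CC the order of HC/CH changed. At 50 to 60% CC it was 7.09% in proximal and 6.66% in distal tiles, at 60 to 70% it was 6.49% and 6.52%, and at 70 to 80% it was 5.22% and 5.73%. Distal tiles with no other chosen tile within 5 kb had HC/CH 0.392 percentage points below all the proximal tiles (adjusted p = 3.1e-05, exact sign-flip permutation test). The proximal tiles were not limited to lone ones in that comparison. For HC/CH, HM/MH and MC/CM the sign of the difference between distal and proximal tiles therefore depended on which tiles or sites were compared.

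**Figure D4:**
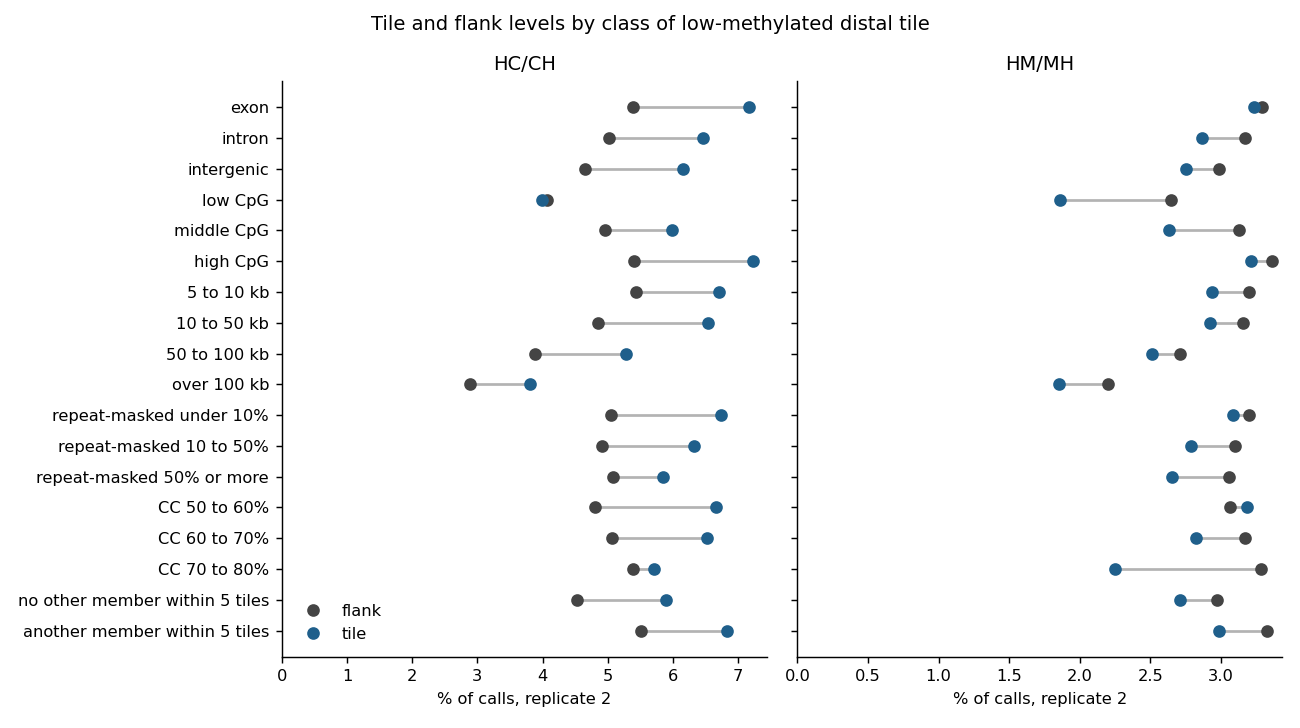
HC/CH and HM/MH in replicate 2 (percent of calls) in the tiles and in their flanks, by annotation, CpG content (low, up to 8 CpGs; middle, 9 to 11; high, 12 or more), distance from the nearest TSS, repeat content, CC in replicate 1 and neighbouring chosen tiles. HC/CH is above the flank in every class but the tiles of low CpG content.

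The tiles differed in HC/CH with their CpG content. They held a median of 11 CpGs, against 9 in all distal tiles, and a median GC content of 46% against 43.2%. In the 17005 tiles with 12 or more CpGs, HC/CH in replicate 2 was 7.22% in the tile and 5.40% in the flank, higher on 19 of 19 autosomes. In the 10345 tiles with 8 or fewer it was 3.99% in the tile and 4.06% in the flank, and the tile was higher on 8 of 19 autosomes. HM/MH was below the flank in both, with 3.21% against 3.36% at high and 1.86% against 2.65% at low CpG content. CC in replicate 2 was alike, at 57.4% and 55.4%, so the tiles of low CpG content held less hmC at a similar CC. In replicate 1 HC/CH in the tiles of low CpG content was 3.71% against 4.37% in their flanks. The differences between classes were not tested.

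HC/CH also varied with annotation and distance. Of the tiles, 9.89% overlapped an exon, 40.4% lay in introns and 49.7% between genes, against 9.93%, 41.6% and 48.4% of all distal tiles. HC/CH in replicate 2 was 7.17% in exonic, 6.47% in intronic and 6.15% in intergenic tiles, and in replicate 1 it was 6.43%, 5.91% and 5.54%. The tiles lay a median of 16.3 kb from a TSS, against 21.5 kb for all distal tiles. HC/CH in replicate 2 was 6.71% at 5 to 10 kb, 6.54% at 10 to 50 kb, 5.28% at 50 to 100 kb and 3.81% beyond 100 kb, where 1651 tiles lay. The flanks of those groups had 5.43%, 4.85%, 3.89% and 2.88%, so tile and flank fell together. Flank tiles of the group at 5 to 10 kb can themselves lie within 5 kb of a TSS. Tiles that were 50% or more repeat-masked had 5.84% HC/CH in replicate 2, and tiles under 10% had 6.74%. By CC in replicate 1, the excess of HC/CH over the flank in replicate 2 was 1.85 percentage points at 50 to 60%, 1.46 at 60 to 70% and 0.316 at 70 to 80%. At 70 to 80% CC HM/MH was 2.25% in the tile and 3.28% in the flank.

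Most chosen tiles stood alone. They formed 29600 runs of adjacent tiles, of which 25520 were a single tile and 3346 were pairs, and the longest held 9. Another chosen tile lay within 5 tiles for 17304 of them, or 49.9%, and 3719 adjoined a distal tile with more than 80% CC. The same shares were not counted over all distal tiles, so these values do not show whether the chosen tiles cluster. In replicate 2 HC/CH was 5.90% in the tiles with no other within 5 tiles and 6.83% in the rest, and it exceeded the flank on 19 of 19 autosomes in both. The longest run lay in Lmnb1, the gene of lamin B1, with 67.2% CC and 6.45% HC/CH of 1023 calls in replicate 1 and 59.0% and 9.35% of 310 calls in replicate 2. Runs of 8 tiles lay in Zmynd8, which encodes a chromatin reader, at chr2:165814000-165821999, and in Msi2, which encodes an RNA-binding protein, at chr11:88549000-88556999. HC/CH in the Zmynd8 run was 4.39% of 912 calls in replicate 1 and 7.17% of 293 calls in replicate 2. In the Msi2 run it was 6.99% of 816 calls and 4.65% of 172 calls.

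Single sites in the tiles ranged from low to high CC. Of the 163659 sites in the tiles with 10 or more calls in replicate 1, 38.4% had CC in 80% or more of calls, 13.8% in 20% or less and 47.9% in between. In the flanks the shares were 11.3%, 62.7% and 26.0%. In replicate 2, which did not choose the tiles, they were 38.6%, 18.4% and 43.0% of 7289 such sites in the tiles. The flanks had 13.5%, 66.8% and 19.7% there. These shares pool the sites of all tiles and do not show how sites are mixed inside 1 tile. The range of CC between the sites of 1 tile had a median of 87.5 percentage points in replicate 1, at a depth that makes single sites coarse. A call with hmC was seen at 39.8% of the sites in the tiles and 35.4% of those in the flanks in replicate 2, at 6.43 and 6.40 calls per site, and in replicate 1 the shares were 50.9% and 56.2%. HC/CH was seen at 30.0% and 23.8% of sites in replicate 2 and at 38.3% and 35.9% in replicate 1. The order of the first pair of shares thus differed between the replicates, and that of the second did not.

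Short sequence motifs of factors active in mESCs were counted in the tiles on both strands, as letters and not as bound sites. AGNGGGCGC, part of the motif of the insulator protein CTCF, was in 2.83% of the tiles and 0.692% of all distal tiles. CCACACCC, a motif of KLF factors, was in 10.7% against 6.60%, and TCAAGGTCA, the motif of the nuclear receptor ESRRB, in 3.69% against 2.45%. GCGCATGCG, the motif of NRF1, was in 0.436% against 0.204%, and GGACAGCGC, part of the motif of the repressor REST, in 0.291% against 0.177%. The octamer ATGCAAAT, read by POU factors, was in 6.88% against 7.17%, and CATTGT, read by SOX factors, in 43.2% against 47.2%. Tiles were also compared within the classes of low, middle and high CpG content, the last of which has no upper limit. Among tiles of low CpG content the CTCF letters were in 1.16% of the chosen and 0.258% of all distal tiles, and at high CpG content in 4.07% and 1.34%. The KLF and ESRRB letters were also more frequent in the chosen tiles in each CpG class. The POU octamer was in 8.95% against 8.45% at low, 6.31% against 6.76% at middle and 5.86% against 5.80% at high CpG content, so its order changed with the class. The NRF1 letters were in 0.806% against 0.504% at high CpG content. At low CpG content they were in 0.0387% against 0.0393%, from 4 chosen tiles, too few to give an order. The REST letters were more frequent and the SOX letters less frequent in the chosen tiles in each class, although only 9 chosen tiles of low CpG content held the REST letters. Proximal tiles of like CC held the CTCF motif in 3.64% and the KLF motif in 11.8%. HC/CH in replicate 2 was 7.39% in the 1278 tiles with the ESRRB motif, with 5.67% in their flanks, and 7.11% in the 3706 tiles with the KLF motif, with 5.57% in their flanks. In the 982 tiles with the CTCF motif it was 5.56% against 5.08% in their flanks, higher on 12 of 19 autosomes, and in replicate 1 it was 5.32% against 5.47%.

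Within 100 kb of the TSSs of listed genes, the share of distal tiles that the rule chose was compared with the 4.12% of all distal tiles. The lists were chosen with results of these data known, and the shares are descriptions. Around 5 core pluripotency genes, 67 of 392 distal tiles were chosen, or 17.1%. Pou5f1, which encodes OCT4, had 16 of 42, and Nanog had 17 of 77, whereas Sox2 had 9 of 72 and Utf1 had 4 of 70. Around 11 genes of naive pluripotency the rule chose 153 of 1234, or 12.4%, with 25 of 125 around Klf5 and 24 of 115 around Zfp42, the marker gene also called Rex1, and 3 of 147 around Nr5a2. Around 7 genes listed under Nodal and TGF-beta signalling it chose 114 of 529, or 21.6%. The most were near Smad7, an inhibitor of that signalling, with 38 of 157. Id3, which encodes an inhibitor of differentiation, had 33 of 112, and Id1 had 21 of 84. Nodal itself had 14 of 90, Lefty1 had 7 of 52 and Lefty2 had 8 of 50. Tdgf1, which encodes the Nodal co-receptor Cripto, had 0 of 24. The share of this list is therefore not that of the Nodal genes alone. Formative and primed genes had 63 of 663, or 9.5%, and 15 lineage regulators had 114 of 1402, or 8.13%, with 21 of 122 around Hand1 and 2 of 113 around Gata4. Around 17 imprinted genes the share was 38 of 1119, or 3.40%, and 4 of those genes had none. HC/CH in replicate 2 was 7.70% in the tiles near core pluripotency genes and 6.88% in their flanks. It was 7.003% and 5.84% near naive genes, and 7.25% and 6.77% near the genes listed under Nodal and TGF-beta signalling. In replicate 1 the tiles and flanks of the latter had 6.94% and 6.95%, with no excess, while those of the core genes had 7.15% and 6.42% and those of the naive genes 6.53% and 6.12%. Near lineage regulators it was 6.33% and 4.98%, beside 6.40% and 4.86% for all the tiles. Near formative and primed genes it was 6.85% and 6.67%, and in replicate 1 it was 7.02% and 6.13%. Near imprinted genes it was 8.45% and 4.30%, from 935 calls, and in replicate 1 it was 7.06% and 5.39%.

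The tiles with the most calls near each of 10 pluripotency genes were read singly, and counting error left most of them indistinct from each other. Near Tbx3, a T-box factor of naive cells, the tile chr5:119661000-119661999 had 65.7% CC of 309 calls in replicate 1 and 48.3% of 120 in replicate 2, inside flanks of 85.1% and 83.3%. Its HC/CH was 7.12% (4.52 to 10.6%) in replicate 1 and 12.5% (7.17 to 19.8%) in replicate 2, and the intervals overlap. In an intron of Esrrb, the tile chr12:86402000-86402999 had 69.7% CC of 346 calls in replicate 1 and 35.3% of 51 calls in replicate 2, with flanks at 18.5% and 15.9%. Its HC/CH was 5.20% (3.11 to 8.10%) and 9.80% (3.26 to 21.4%). Its MC/CM was 4.62% (2.67 to 7.40%) and 21.6% (11.3 to 35.3%), and these intervals do not overlap. The tile near Pou5f1, chr17:35590000-35590999, lay 10.6 kb from the TSS of Sfta2 and had 72.9% and 65.9% CC, with HC/CH at 5.58% (3.15 to 9.03%) and 6.59% (2.46 to 13.8%). The tile 15.8 kb from Klf4, chr4:55515000-55515999, had 75.3% and 81.9% CC and an HM/MH of 0.772% and 1.06%. The tile 31.7 kb from Klf5, chr14:99266000-99266999, had HC/CH at 10.5% (6.55 to 15.8%) and 9.21% (3.78 to 18.1%), with 8.40% and 9.92% in its flanks. Near Sox2, 41.6 kb from its TSS, chr3:34692000-34692999 had 4.61% and 5.71% HC/CH, below 10.5% and 8% in its flanks. Within 100 kb of Sall4, chr2:168845000-168845999 had 8.49% and 16.2%, the latter from 37 calls. Its nearest protein-coding TSS was that of Zfp64, at 66.6 kb.

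**Figure D5:**
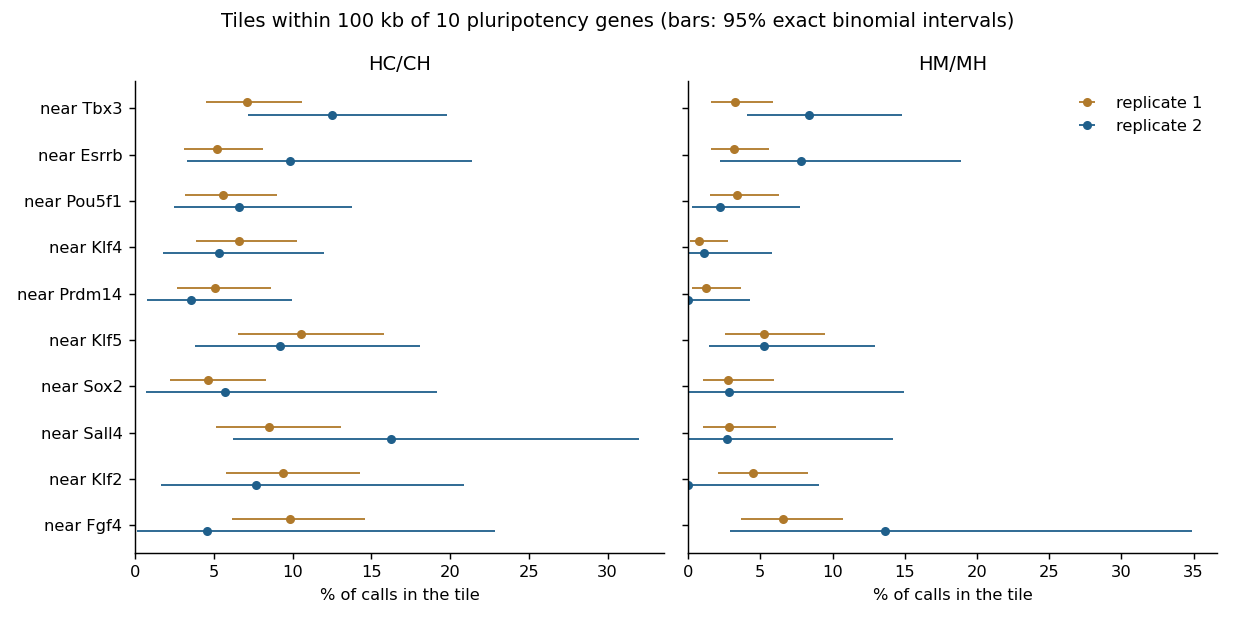
HC/CH and HM/MH (percent of calls) in the tile with the most calls within 100 kb of each of 10 pluripotency genes, in replicate 1 and replicate 2, with exact binomial intervals at 95%. The intervals of the replicates overlap for each of the 10 genes, and those of replicate 2 are the wider.

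The remaining tiles, within 100 kb of Prdm14, Klf2 and Fgf4, had HC/CH of 5.04%, 9.41% and 9.81% in replicate 1 and 3.53%, 7.69% and 4.55% in replicate 2. The last value came from 22 calls (0.115 to 22.8%). Their nearest protein-coding TSSs were those of other genes, Slco5a1 at 57.35 kb, Ap1m1 at 15.1 kb and Fgf3 at 9.08 kb. CC in the Klf2 tile was 70.8% in replicate 1 and 38.5% of 39 calls in replicate 2, and in the Fgf4 tile 56.5% and 54.5%. The tile near Prdm14 held both the SOX and the CTCF letters given above, that near Fgf4 the SOX and KLF letters, and that near Klf5 the POU octamer.

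Among the 5709 tiles with 5 or more sites and 40 or more calls in both replicates, those with the highest levels of each state by the lower replicate are given as a description. The highest HC/CH was in the tile of the Cdh4 intron, chr2:179792000-179792999, with 19.5% (11.8 to 29.4%) of 87 calls in replicate 1 and 19.05% (8.60 to 34.1%) of 42 calls in replicate 2. Its flanks had 5.76% and 2.99%, and their CC was 10.1% and 4.19% against 55.2% and 52.4% in the tile. The intergenic tile chr14:76630000-76630999 had HC/CH at 18.3% (11.9 to 26.4%) and 20.4% (10.2 to 34.3%), and no HM/MH among 49 calls in replicate 2. An intronic tile of Slit3, a guidance ligand, at chr11:35390000-35390999 had 17.7% and 18.2%, within flanks of 71.5% CC in both replicates. Its own CC was 58.9% in replicate 1 and 36.4% in replicate 2. The tile chr4:156070000-156070999, 10.6 kb from Ttll10, had 18.9% and 17.5%, with 58.5% CC in replicate 1 and 40% in replicate 2. The intergenic tile on chromosome 14 had 61.7% and 71.4% CC.

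The highest HM/MH levels lay in other tiles. The tile chr2:157818000-157818999, which overlaps an exon of Ctnnbl1, had 10.8% (5.71 to 18.1%) in replicate 1 and 12.5% (4.73 to 25.2%) in replicate 2, with no HC/CH among its 48 calls in replicate 2. In an intron of Lmf1, chr17:25651000-25651999 had 10.4% and 14.6%. In an intron of Sh3rf1, chr8:61309000-61309999 had 9.33% and 9.09% HM/MH beside 12% and 18.2% HC/CH. CC in replicate 2 was 25% in the Ctnnbl1 tile, 53.7% in the Lmf1 tile and 47.3% in the Sh3rf1 tile. The highest MC/CM was in an intron of Clgn, chr8:83407000-83407999, with 17.8% (12.4 to 24.3%) and 17.2% (8.59 to 29.4%), and HC/CH was 1.72% there in replicate 1 and absent from 58 calls in replicate 2. The 4 tiles with the highest MC/CM had 0 to 6.38% HC/CH in replicate 2, and the 4 with the highest HC/CH had 0 to 11.4% MC/CM.

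Among the tiles with the most calls in replicate 2, the tile near Cd244a, chr1:171551000-171551999, had 804 calls at 12 sites in replicate 1 and 263 calls at 12 sites in replicate 2, far more per site than the means of 10.4 and 6.43. Its HC/CH was 1.99% (1.14 to 3.21%) and 1.52% (0.416 to 3.85%), below the pooled level, and its CC of 55.5% and 47.5% was below that of its flanks, 60.4% and 54.9%. Whether the depth of this tile bears on its levels was not tested. The tile overlapping an exon of Extl1, chr4:134357000-134357999, had 72.8% and 73.8% CC, with 6.01% (4 to 8.63%) and 9.71% (6.03 to 14.6%) HC/CH. The Plec exon had 8.91% and 4.09% HC/CH, and the exonic tiles of Mgat3 and Dupd1 had 3.01% and 7.42% in replicate 1 and 3.59% and 5.06% in replicate 2. The intergenic tile chr8:85456000-85456999 had 2.09% (0.771 to 4.49%) and 2.44% (0.668 to 6.13%), while its flanks had 8.35% and 8.08%. The Extl1 tile had 6.24% and 2.44% HC/CH in its flanks and the Plec tile 8.31% and 8.82%, so neither was above its flanks in both replicates.

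No difference between the plus and minus strands passed the test in the tiles as called. In replicate 2, HC took 3.18% and CH 3.23% of calls, a difference that did not pass the test (adjusted p = 0.081, exact sign-flip permutation test), and in replicate 1 they took 2.90% and 2.89%. HM and MH took 1.42% and 1.44% in replicate 2 (adjusted p = 0.82), and MC and CM took 4.02% and 4.02% (adjusted p = 0.88, both exact sign-flip permutation tests). Correction with the duplexes' call rates made MC exceed CM by 0.542 percentage points in replicate 2 (adjusted p = 1.1e-05, exact sign-flip permutation test), because MM duplexes were called CM in 2.05% and MC in 0.142% of calls. With rates averaged over both strand orders the difference was -0.00715 percentage points.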

How the data were processed

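Genomic DNA of 2 replicates of 1 condition was read by SCoTCH-seq. The authors trimmed reads with cutadapt 4.6, used BSBolt for alignment to GRCm38 and Picard 3.1.1 to take out duplicates, and called both strands of each CpG. Per the deposited files, each site with 5 or more calls has a count and a percent for each state, and blacklisted regions were removed by the authors. Here the counts were summed over 1 kb tiles and given as a percent of calls. The percent column deposited by the authors was only checked against the counts. Tiles, lists and comparisons were chosen with earlier results of these data known. Distances are to GENCODE vM21 TSSs, and sequences and motifs come from GRCm38.p6. Named tiles are those with the most calls in replicate 2, the highest level of a state by the lower replicate, the most calls near each pluripotency gene (at most 10 genes), and the longest runs; 1 sequence window was left out because it overlaps a UTR. Alternatives changed call-rate correction, coverage, site weighting, the rule's limits, TSSs, repeats, flank and choosing replicate. The test was checked on simulated calls drawn at the same levels on all autosomes, so the check does not cover variation between autosomes or tiles. Python 3.11.15, NumPy 2.4.6, pandas 2.3.3, SciPy 1.17.1 and Matplotlib 3.10.9 were used.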

Additional observations from a re-analysis of the deposited data

How the results depend on the processing

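Of 306 tested values (24 results under 15 alternatives, not all of which applied to every result), 272 were counted as kept, 20 were weaker, 1 was stronger and 13 reversed. A kept value had the same direction and side of the threshold. A change of sign was also counted as kept where neither value passed the test. The excess of HC/CH in tiles over flanks, pooled over all tiles, kept its direction and side of the threshold in every tested alternative. No alternative split the tiles by CpG content, and the tiles of low CpG content had no such excess, as given above. Where no value below bears on it, the cause was not tested.

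With call rates from the summed spike-ins, the tile minus flank difference was 0.611 percentage points for HM/MH and -2.86 for the share of HC/CH among hmC calls, the distal minus proximal difference was 0.112 (HC/CH) and 0.0367 (HM/MH), and the strand differences were -0.0844 (HM minus MH) and 0.532 (MC minus CM). With each library's own rates, distal minus proximal HM/MH was 0.0794 and MC minus CM was 0.542. With 10 or more calls per site, fewer sites were left, and 6 calls were lost and 1 value reversed: HM/MH was -0.159 for tile minus flank and 0.160 against other distal tiles, HH was 0.00413 for near minus far, and distal minus proximal was 0.0975 (HC/CH), 0.0757 (HM/MH), 0.0896 for HH and -0.423 for MC/CM.

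The remaining distal minus proximal values were 0.00328 (HC/CH), 0.0494 (HM/MH) and 0.143 (MC/CM) at sites in both replicates, 0.109 (MC/CM) with 10 or more sites, 0.0626 (HC/CH), 0.00567 (HM/MH) and 0.0161 (MC/CM) at 55 to 75% CC, -0.119 (HC/CH), 0.0197 (HM/MH) and 0.0256 (HH) beyond 10 kb, and -0.392 (HC/CH) and -0.0609 (HM/MH) for tiles with no other chosen tile within 5 tiles. With the 10 kb limit the proximal tiles were also redrawn, to 10 kb or less, while the lone distal tiles were set against all proximal tiles. Of the 48 distal minus proximal values, 15 lost their call and 4 turned in sign. For those lone tiles, HM/MH against other distal tiles was 0.0646. Tiles chosen in replicate 2 and measured in replicate 1 gave HH at -0.0416 for tile minus flank, -0.0145 for near minus far and -0.0903 against other distal tiles, and HM/MH at -0.353 for near minus far and -1.66 against other distal tiles. With replicate 1's own rates, an alternative added after seeing the data, HM/MH tile minus flank was -0.0362. The number of tiles was 14071 with 10 or more sites, 9587 when chosen in replicate 2 and 21616 at 55 to 75% CC.

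Leaving out a replicate means that 1 library both chose and measured the tiles, with no test; the case without replicate 1 was added after seeing the data, as were rates averaged over strand orders. For tile minus flank the range in percentage points was 36.2 to 36.4 (CC), -30.6 to -29.4 (MM), -6.05 to -5.93 (MC/CM), 0.59 to 0.82 (HC/CH), -1.42 to -0.628 (HM/MH) and -0.0531 to 0.14 (HH). For shares, tile minus flank the range in percentage points was 6.59 to 11.5 (HC/CH among hmC calls), 10.6 to 13 (hmC among modified calls) and 3.13 to 4.7 (MC/CM among methylated calls). For near minus far flank the range in percentage points was 0.577 to 0.669 (HC/CH), -0.171 to 0.113 (HM/MH), -0.00756 to 0.0358 (HH) and -1.82 to -1.42 (MC/CM). Against other distal tiles the range in percentage points was 1.63 to 2.09 (HC/CH), -1.52 to -0.361 (HM/MH), -0.0546 to 0.207 (HH) and -7.72 to -7.68 (MC/CM). Against proximal tiles the range in percentage points was -0.0768 to 0.372 (HC/CH), 0.128 to 0.185 (HM/MH), 0.0408 to 0.0758 (HH) and 0.175 to 0.334 (MC/CM). For the strands the range in percentage points was -0.0655 to 0.00727 (HC minus CH), 0.00398 to 0.00604 (HM minus MH) and -0.00371 to 0.0389 (MC minus CM).

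No paired analysis was possible because the series holds 1 group only. Replicate 2 gave 6.43 calls per site in the tiles, so single tiles are coarse, and states near the miscall rates, HM/MH and HH, are the least certain.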
